A study of Gallus gallus with 6 samples.

Results

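Genes of the LIM homeobox family and their LIM cofactors were examined in chick wing explants cultured with an inhibitor of Fgf receptors or with its solvent. The 8 genes were taken by name: the LIM homeobox genes LHX2, LHX9, LMX1B and ISL1, the LIM domain-binding cofactors LDB1 and LDB2, and the LIM-only genes LMO1 and LMO4. All 8 were found among the 21062 genes for which normalized read counts were deposited, 7 under these symbols and LHX2 under its older symbol LH-2A. Each was expressed highly enough to be tested among 16324 genes.

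The explants came from WT (wild-type) chick embryos, Gallus gallus. The posterior part of the wing bud was dissected at HH20, an early bud stage, embedded in Growth Factor Reduced Matrigel and kept in culture for 48 h. One set received SU5402, an inhibitor of Fgf receptors, at 5 µM from the start of culture, and the control set received DMSO, the solvent of SU5402. Polyadenylated RNA of 3 libraries per treatment was sequenced, each made from a pool of explants, with 3 replicate experiments per treatment. Differences between single embryos are thus not seen, and p-values measure the spread between pools. Whether a DMSO and an SU5402 library share an experiment is not given. The labels give the cell type as mesenchyme, but whole explants were sequenced.

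LIM homeobox proteins carry LIM domains beside a DNA-binding homeodomain. LDB proteins bind those LIM domains and pair with each other, so that they join LIM homeobox proteins into complexes. LMO proteins have LIM domains but no homeodomain, and can compete with LIM homeobox proteins for LDB. In the limb bud, LHX2 and LHX9 are known from the distal mesenchyme beneath the apical ectodermal ridge, the source of Fgf, and LMX1B from the dorsal mesenchyme, where it sets dorsal identity. In mouse, Lhx2, Lhx9 and Lmx1b act together in limb outgrowth.

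Expression is given as the number of reads on a gene divided by a size factor of its library (normalized counts), and as FPKM, the same value per length of the gene, where different genes are compared. Between 25849833 and 44261768 reads on genes were counted per library. Of 8 limb mesenchyme markers all were tested, and their summed normalized counts were 59099 to 62336 with DMSO and 53459 to 56800 with SU5402, with 3 past the adjusted p lower and 2 higher. They moved in both directions, with log2 fold changes of -1.16 for MSX1, -0.81 for HAND2 and 1.13 for TWIST2, while TBX5, which marks forelimb mesenchyme, was at -0.03 (SE 0.05). The summed markers of other cell types differed by more. Summed endothelial markers were 17033 to 17498 with DMSO and 1977 to 2194 with SU5402 (6 of 6 tested past the adjusted p, all lower), and summed ectoderm markers 5742 to 7208 and 12880 to 14422 (6 of 6, all higher). Summed muscle markers were 559 to 661 and 2621 to 3715 (4 of 4, all higher), and summed blood markers 2475 to 3195 and 9078 to 13251 (4 of 4, all higher). Summed neural crest and glia markers were 522 to 637 and 842 to 1120 (1 of 4, higher). Of all genes tested, 16.0% were past the adjusted p lower and 14.4% higher. Apart from the motor neuron gene CHAT, none of the listed markers found had a library without reads. The part of these shifts in the values below was not tested, and in RNA from whole explants, fewer cells of a type and less RNA per cell cannot be told apart.

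The 8 genes did not move together. LHX2 and LMO1 were down-regulated with SU5402 and ISL1 was up-regulated, where a call needed a fold change above 2 and a limma p below 0.05 after Benjamini-Hochberg adjustment across the whole table. Down-regulated genes thus made up 2 of the 8, against 4.54% of all genes tested, and up-regulated genes 1 of the 8, against 6.26% (3 of the 8 in either direction, against 10.8%). LMX1B, LDB1 and LMO4 passed the adjusted p with a smaller fall, which gives 5 of the 8 lower on the adjusted p alone, against 16.0% of all genes, and 1 higher, against 14.4% (6 in either direction, against 30.4%). LHX9 and LDB2 did not pass. For 6 of the 8 genes the libraries of both treatments did not overlap against 49.7% of all genes tested. Of these, 5 were lower with SU5402, against 25.6% of all genes, and 1 was higher, against 24.2%. The 1 higher gene in each count is ISL1. It reached the minimum level for testing only through the SU5402 libraries, in which it is high. The counts of higher genes and of either direction are thus partly set by that minimum. The 8 genes, and the lists of related genes below, were also chosen with earlier results of these data known. Their shares are therefore not those of genes chosen blind to the results, and their distance from the shares of all genes was not tested. The median log2 fold change of the 8 was -0.39, and that of all genes tested was 0.01.

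**Figure D1:**
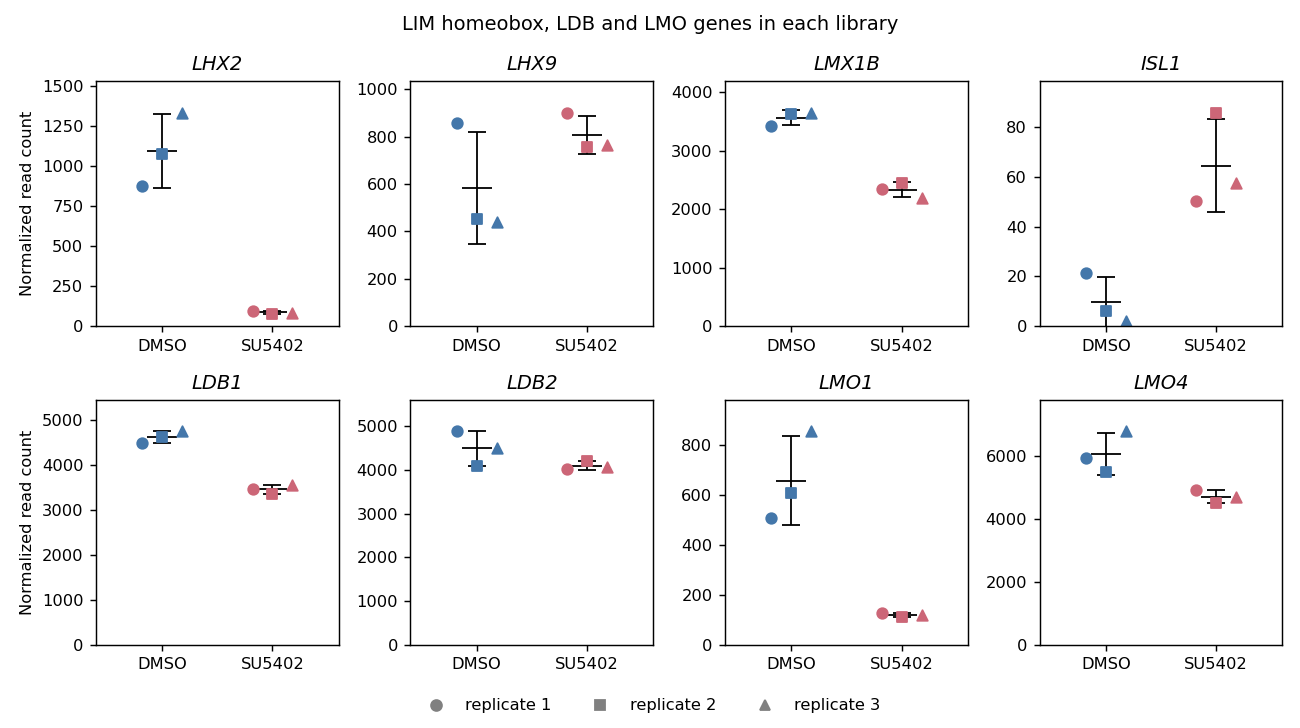
Normalized read count of each gene (vertical axis, from 0, with its own scale in each panel) in the 3 DMSO and 3 SU5402 libraries. Points are libraries, with the shape giving the replicate number, and bars are the mean and SD. LHX2 lies between 874 and 1331 with DMSO and between 77.9 and 96.3 with SU5402, while the DMSO point of replicate 1 for LHX9 lies among the SU5402 points.

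LHX2 (ENSGALG00000001124, GRCg6a chromosome 17, 9524055 to 9542497, plus strand) had the largest fall of the 8. It was read at 874, 1075 and 1331 normalized counts in DMSO replicates 1, 2 and 3, and at 96.3, 77.9 and 80.5 in SU5402 replicates 1, 2 and 3. All DMSO libraries lay far above all SU5402 libraries, and the SU5402 libraries lay close to each other. The mean fell from 1093 ± 229 to 84.9 ± 9.93 (SD, n = 3), or 7.76% of the DMSO mean. This is a log2 change of -3.66 (SE 0.18, 95% interval -4.10 to -3.21, adjusted p = 0.000318, limma). The SU5402 values rest on 86 to 89 reads in each library. Without any one library the log2 fold change stayed between -3.81 and -3.50, and LHX2 was called in all 18 alternatives run.

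LHX9 (ENSGALG00000002223, chromosome 8, 2669865 to 2680557, minus strand) is the closest relative of LHX2 in the family. Its normalized counts were 858, 453 and 441 with DMSO and 899.8, 757 and 765 with SU5402. DMSO replicate 1 was as high as the SU5402 libraries, and the other two DMSO libraries lay below all of them. The means were 584 ± 237 and 807 ± 80.3 (SD, n = 3), with a log2 change of 0.53 (SE 0.28, 95% interval -0.18 to 1.24, adjusted p = 0.214, limma). The interval reaches from a slightly lower level to one more than 2-fold higher. Without DMSO replicate 1 the log2 fold change was 0.85, with an adjusted p of 0.0103 by limma. With any other library left out, the log2 fold change was 0.37 to 0.58, with an adjusted p of 0.293 to 0.436 by limma. A fall of the size seen for LHX2 lies well outside the interval.

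The difference between this pair of genes was also taken within each library, where the scaling between libraries has no part. The ratio of LHX2 to LHX9 in FPKM was 1.56, 3.63 and 4.61 in the DMSO libraries and 0.164, 0.158 and 0.161 in the SU5402 libraries. LHX2 was thus the more abundant of the pair in every DMSO library and the less abundant in every SU5402 library. The log2 ratio differed by -4.21 (SE 0.48), with an exact two-sided permutation p of 0.1, which is the smallest that 3 libraries against 3 can give, so no ratio here could pass 0.05 (adjusted p = 0.117 over the 7 ratios compared). LHX2 made up 60.9%, 78.4% and 82.2% of the summed FPKM of both genes with DMSO, and 14.1%, 13.6% and 13.9% with SU5402. The sum itself was 32.2 to 38.0 FPKM with DMSO and 13.4 to 16.1 with SU5402.

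LMX1B (ENSGALG00000040582, chromosome 17, 10356719 to 10450700, plus strand), the dorsal mesenchyme factor, fell by less than 2-fold. Its libraries held 3427, 3634 and 3647 normalized counts with DMSO and 2353, 2455 and 2195 with SU5402. The treatments did not overlap, and libraries within a treatment differed little. The mean went from 3569.5 ± 124 to 2334 ± 131 (SD, n = 3), 65.4% of the DMSO mean, with a log2 change of -0.61 (SE 0.07, 95% interval -0.78 to -0.44, adjusted p = 0.00281, limma). The interval leaves out a 2-fold fall. The ratio of LMX1B to LHX2 in FPKM was higher in every SU5402 library, at 17.5 to 22.6, than in any DMSO library, at 1.96 to 2.81 (difference of the log2 ratio 3.06, SE 0.18, exact permutation p = 0.1).

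Genes of the dorsal and ventral ectoderm were set beside LMX1B. WNT7A, the dorsal ectoderm signal that induces LMX1B, had 185, 190.4 and 197 normalized counts with DMSO and 195, 239.9 and 244 with SU5402, a log2 change of 0.24 (SE 0.10, adjusted p = 0.147, limma). EN1, the ventral ectoderm repressor of WNT7A, had 215, 272 and 93.2 with DMSO and 635, 415 and 446 with SU5402, with a log2 change of 1.47 (SE 0.44, adjusted p = 0.0553, limma). RFNG, a dorsal ectoderm gene known for its role in positioning the apical ridge in chick, had a log2 change of -0.04 (SE 0.06). None of these 3 genes passed the threshold. The ectoderm markers given above were higher with SU5402 in the same libraries, and their part in the levels of WNT7A and EN1 was not tested.

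ISL1 (ENSGALG00000014884, chromosome Z, 15144193 to 15155463, plus strand) was the only one of the 8 genes called higher, at a low level. ISL1 is needed for the start of hindlimb growth in mouse and is a marker of motor and sensory neurons. Its normalized counts were 21.2, 6.12 and 2.14 with DMSO, from 16, 8 and 2 reads, and 50.4, 85.8 and 57.6 with SU5402, from 45, 98 and 63 reads. Every SU5402 library lay above every DMSO library, and the DMSO libraries differed from each other by about as much as their mean. The mean rose from 9.82 ± 10.0 to 64.6 ± 18.7 (SD, n = 3), a ratio of 6.58, and the log2 fold change was 3.01 (SE 0.73, 95% interval 1.17 to 4.86, adjusted p = 0.0315, limma). ISL1 reached the minimum of 10 normalized counts for testing in all 3 SU5402 libraries but in 1 DMSO library. The call depended on single libraries. It held without DMSO replicate 1 (log2 fold change 3.76), but the adjusted p by limma was 0.0912 without DMSO replicate 2, 0.0515 without DMSO replicate 3, and 0.0743, 0.0926 and 0.0819 without SU5402 replicates 1, 2 and 3. On the reads themselves, edgeR's quasi-likelihood test called it at an adjusted p of 0.00235.

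Markers of hindlimb and of neurons were read in the same libraries as ISL1. PITX1, a hindlimb gene, had 55.6, 48.2 and 60.0 normalized counts with DMSO and 320.1, 167 and 224 with SU5402, and rose by a log2 change of 2.05 (SE 0.25, adjusted p = 0.00385, limma). TBX4, the other hindlimb gene, had 11.9 to 26.8 with DMSO and 6.72 to 22.9 with SU5402, and these ranges overlapped. Of 6 neuron markers tested, MNX1, SLC18A3 and NEFL were up-regulated (3 of 6, against 6.26% of all genes tested). SLC18A3 had only 23, 14 and 13 reads in the DMSO libraries. None was down-regulated (against 4.54%), also on unadjusted p below 0.05 by limma (0 of 6) and by edgeR (0 of 6). The other 3 had negative log2 fold changes and did not pass, at -0.56 (SE 0.23) for STMN2, -0.30 (SE 0.50) for SNAP25 and -0.08 (SE 0.09) for ELAVL4. Summed neuron markers were 1587 to 1813 with DMSO and 2022 to 2214 with SU5402. CHAT, the enzyme that makes acetylcholine in motor neurons, had no read in any DMSO library and 0, 3 and 5 reads in the SU5402 libraries. The part of neurons or of hindlimb genes in the rise of ISL1 was not tested.

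**Figure D2:**
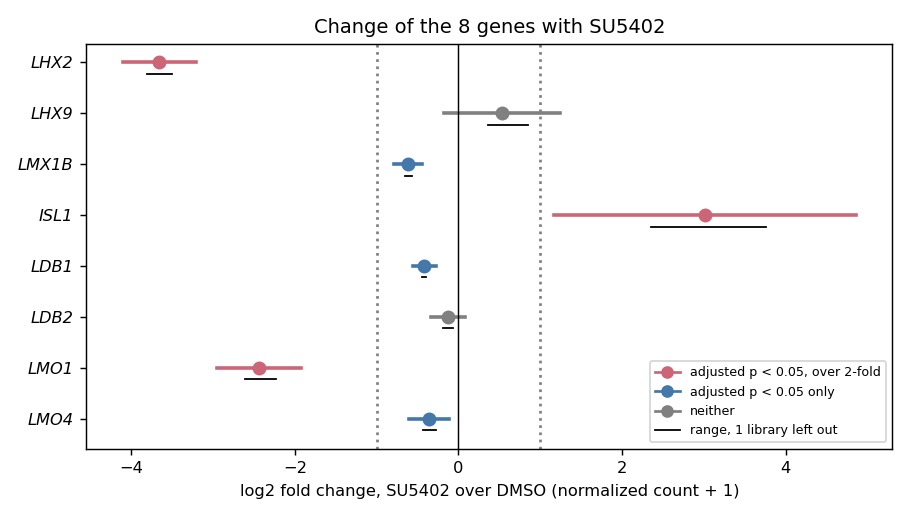
Log2 fold change of each gene, SU5402 over DMSO, on log2(normalized count + 1). Points are estimates from 3 libraries per treatment with 95% intervals, black lines below them span the estimates with 1 library left out, and dotted lines mark a 2-fold change. LHX2 (-3.66) and LMO1 (-2.44) lie far below -1, and the interval of ISL1 (1.17 to 4.86) is the widest.

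The cofactors that LIM homeobox proteins need were among the most abundant of the 8. LDB1 (ENSGALG00000007641, chromosome 6, 23470328 to 23489022, plus strand) had 4489, 4621 and 4744 normalized counts with DMSO and 3459, 3344 and 3556 with SU5402. Libraries of a treatment stayed close together and the treatments did not overlap. The mean fell from 4618 ± 127 to 3453 ± 106 (SD, n = 3), 74.8% of the DMSO mean, with a log2 change of -0.42 (SE 0.06, 95% interval -0.56 to -0.28, adjusted p = 0.00518, limma). PPRC1 overlaps LDB1 on the opposite strand and was itself at 13.8 FPKM with DMSO and 9.32 with SU5402. Whether strand was used in counting is not given in the sources used here, so reads of the overlap could be shared between both genes.

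LDB2 (ENSGALG00000014485, chromosome 4, 76025150 to 76382215, plus strand), which binds LIM domains as LDB1 does, had 4885, 4094 and 4516 normalized counts with DMSO and 4035, 4209 and 4070.3 with SU5402. The treatments overlapped, and DMSO replicate 2 lay within the SU5402 range. With means of 4498 ± 396 and 4105 ± 92.3 (SD, n = 3), the log2 fold change was -0.13 (SE 0.08, 95% interval -0.33 to 0.08, adjusted p = 0.286, limma). A fall as large as the estimate for LDB1 lies outside this interval. The ratio of LDB1 to LDB2 in FPKM was 1.70, 2.09 and 1.94 with DMSO and 1.58, 1.47 and 1.61 with SU5402, lower in each SU5402 library than in any DMSO library (difference of the log2 ratio -0.29, SE 0.10, exact permutation p = 0.1).

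LMO1 (ENSGALG00000035679, chromosome 5, 10352793 to 10399602, plus strand), a LIM-only gene, followed LHX2 as the second large fall. It had 508, 608 and 855 normalized counts with DMSO and 128, 109 and 118 with SU5402. The lowest DMSO library was far above the highest SU5402 library. The mean fell from 657 ± 178 to 118 ± 9.50 (SD, n = 3), 18.0% of the DMSO mean, a log2 change of -2.44 (SE 0.20, 95% interval -2.95 to -1.92, adjusted p = 0.00125, limma). LMO1 was called in all 18 alternatives run, with log2 fold changes between -2.60 and -2.01.

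LMO4 (ENSGALG00000006252, chromosome 8, 16116468 to 16130653, minus strand), another LIM-only gene, was the most abundant of the 8 in every library and fell by a small amount. It had 5925, 5491 and 6781 normalized counts with DMSO and 4922, 4509.7 and 4696 with SU5402. All SU5402 libraries were below all DMSO libraries, though the gap between the nearest libraries was smaller than the range within DMSO. Means were 6065 ± 656 and 4709 ± 207 (SD, n = 3), with a log2 change of -0.36 (SE 0.10, 95% interval -0.60 to -0.12, adjusted p = 0.0407, limma). The adjusted p was past the threshold only narrowly, and by limma it reached 0.0434 without DMSO replicate 2 but was between 0.0794 and 0.110 with any other library left out. The ratio of LMO1 to LMO4 in FPKM was 0.0851, 0.110 and 0.125 with DMSO and 0.0257, 0.0239 and 0.0249 with SU5402, a difference of the log2 ratio of -2.09 (SE 0.17, exact permutation p = 0.1).

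Per length, LMO4 led in both treatments, with 99.5 to 123 FPKM with DMSO and 81.7 to 89.2 with SU5402, followed by LDB1 with 87.2 to 92.2 and 65.0 to 69.1. LMX1B (57.6 to 61.3 FPKM) stood above LDB2 (43.0 to 51.4) in every DMSO library and below it in every SU5402 library (36.9 to 41.3 against 42.4 to 44.3). In the DMSO libraries LHX2 (20.5 to 31.3 FPKM) came next. LMO1 (9.14 to 15.4) and LHX9 (6.77 to 13.2) overlapped there and changed places in DMSO replicate 1. With SU5402 the order below LMX1B was LHX9 (11.6 to 13.8 FPKM), then LMO1 (1.95 to 2.29) and LHX2 (1.83 to 2.26), whose ranges overlapped. ISL1 was last in all libraries, at 0.0382 to 0.378 FPKM with DMSO and 0.899 to 1.53 with SU5402. Among all 21062 genes with normalized counts, including those too low to be tested, the mean FPKM of LHX2 stood at percentile 81.3 with DMSO and 41.1 with SU5402. That of LMO4 stood at 97.0 and 95.9.

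**Figure D3:**
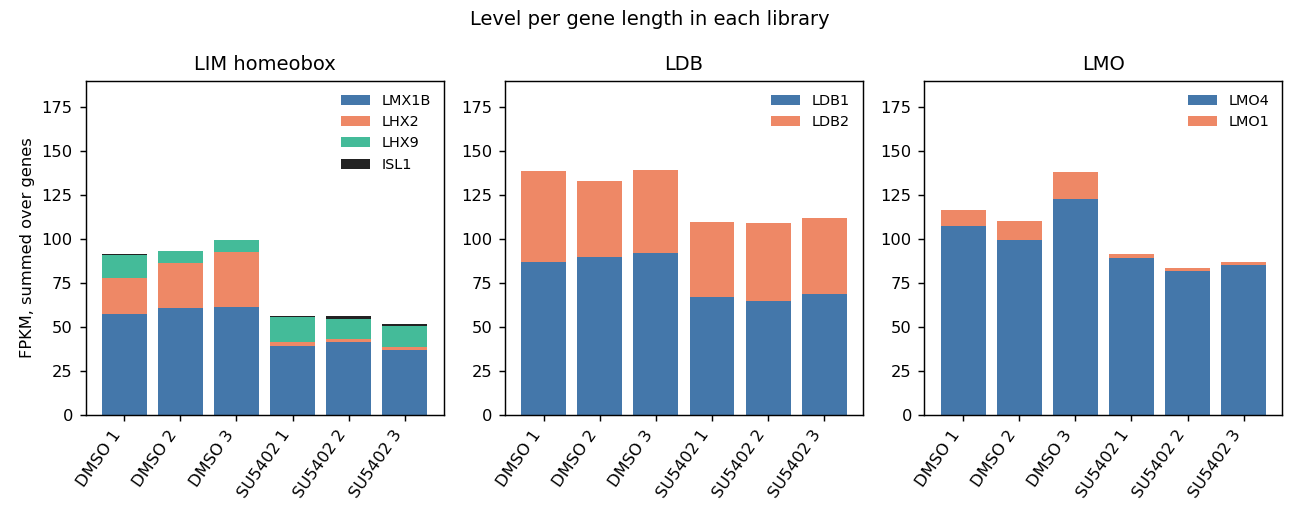
FPKM of the 8 genes, stacked as LIM homeobox, LDB and LMO genes, in each of the 6 libraries (vertical axis from 0, the same in all panels). Other members of these families are left out. The LIM homeobox stack is 91.7 to 99.4 with DMSO and 51.6 to 56.5 with SU5402, and the LHX2 segment is a thin band with SU5402.

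Summed over the 4 LIM homeobox genes among the 8, FPKM was 94.8 ± 4.04 with DMSO and 54.8 ± 2.79 with SU5402 (SD, n = 3). This sum leaves out the other LIM homeobox genes, given below. Of those, LHX5 was higher with SU5402 (at most 0.264 FPKM with DMSO, 6.08 to 7.72 with SU5402) and LHX6 was lower (0.600 to 0.811 and 0 to 0.132). LMX1B supplied most of the sum of the 4 genes in every library, with 61.7% to 65.4% with DMSO and 70.0% to 73.4% with SU5402. LHX2 supplied 27.0% ± 4.53 with DMSO and 3.64% ± 0.373 with SU5402 (SD, n = 3), while LHX9 supplied 6.82% to 14.4% and 20.7% to 24.4%. The 2 LDB genes together held 132.9 to 139.7 FPKM with DMSO and 109.3 to 112 with SU5402. The ratio of the LIM homeobox sum to the LDB sum was 0.661, 0.703 and 0.711 with DMSO and 0.515, 0.515 and 0.461 with SU5402, lower in every SU5402 library than in any DMSO library (difference of the log2 ratio -0.48, SE 0.06, exact permutation p = 0.1). The ratio of the LMO sum, of LMO1 and LMO4 only, to the LDB sum overlapped between treatments, at 0.831 to 0.990 and 0.766 to 0.834. The log2 ratio differed by -0.16 (SE 0.09, exact permutation p = 0.2). This ratio does not stand for all LIM-only genes. It leaves out LMO2 (18.3 to 23.8 FPKM with DMSO, 6.63 to 9.14 with SU5402) and LMO3 (9.28 to 11.3 and 2.57 to 3.60), both lower with SU5402. These are levels of transcripts, not of protein.

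**Figure D4:**
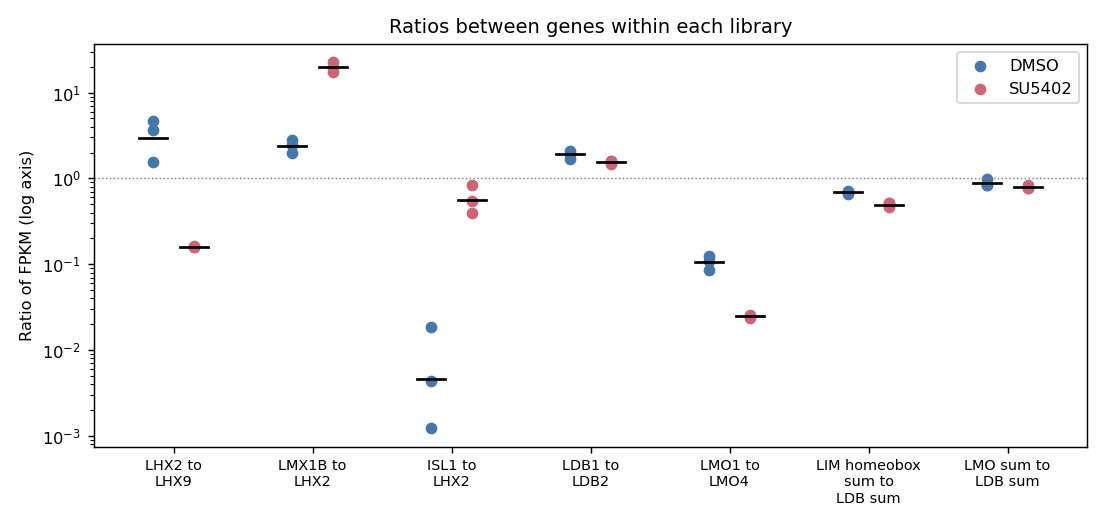
Ratio of FPKM between genes, or between sums of the family members among the 8 genes, within each library (vertical axis, log scale). DMSO and SU5402 libraries are side by side. Points are libraries and bars their geometric means. The LHX2 to LHX9 ratio lies above 1 in all DMSO libraries (1.56 to 4.61) and near 0.16 in all SU5402 libraries. The LMO sum, without LMO2 and LMO3, to the LDB sum is the only one of the 7 ratios that overlaps between treatments.

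The spread between DMSO libraries differed among the genes. The coefficient of variation of normalized counts with DMSO was 2.76% for LDB1 and 3.46% for LMX1B, but 21.0% for LHX2, 27.1% for LMO1, 40.6% for LHX9 and 102% for ISL1. DMSO replicate 1 was the lowest DMSO library for LHX2 and LMO1 and the highest for LHX9 and ISL1. It was also the lowest DMSO library for SHH and FGF10. SHH, the polarising region signal, had 408 normalized counts there against 760.0 and 665 in DMSO replicates 2 and 3, and FGF10, the mesenchymal Fgf that maintains the ridge, had 2227 against 2615 and 3133. With SU5402, FGF10 had 388, 454 and 459 normalized counts and SHH 12.3, 10.5 and 10.1, so that even DMSO replicate 1 lay above every SU5402 library for both genes. FGF8, the ridge Fgf, was lowest in DMSO replicate 2, and had 64.2 to 155 normalized counts with DMSO and at most 2 reads in any SU5402 library.

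For each of the 8 genes, the 3 protein-coding genes with the most similar profile were found by the root mean square difference of log2(normalized count + 1), centred over the 6 libraries, among 10471 or 10472 candidates with a mean of at least 50 normalized counts. The profile of LHX2 was nearest to those of EDNRB (difference 0.192), SLC38A3 (0.200) and CA8 (0.209), and that of LMO1 to those of F2RL2 (0.159), FZD4 (0.171) and FGF10 (0.181). LMX1B was nearest to ZNF710 (0.0318), PREX1 and CLASP2, LDB1 to FKBP51 (0.0197), RPRD2 and FGFR1, and LMO4 to MRPS23 (0.0327), GUCY1B1 and UXS1. LHX9 was nearest to LRRC61 (0.133), UCP3 and DUSP21, LDB2 to COQ5 (0.0271), RILPL1 and KATNAL1, and ISL1, with the largest distance, to SLC26A9 (0.401). These distances describe 6 libraries, and the treatment dominates the profiles of genes with a large change, such as LHX2 and LMO1. For LHX9 and LDB2 the treatments overlapped.

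Of the other 8 LIM homeobox genes, 5 were expressed highly enough to be tested, and LHX3, LHX4 and ISL2 were not. ISL2 had 25.2, 9.18 and 18.2 normalized counts with DMSO and 6.72, 3.50 and 7.31 with SU5402. It was lower without overlap, as were 25.6% of all genes tested. LHX3 and LHX4 overlapped between treatments. Called by limma were 2 of the 5 as up-regulated, against 6.26% of all genes tested, and 0 as down-regulated, against 4.54%, with 1 lower at an unadjusted p below 0.05 and 1 called lower by edgeR and by DESeq2. LHX5, known from the developing forebrain and from spinal interneurons, had 3.97, 10.7 and 0 normalized counts with DMSO, from 3, 14 and 0 reads, and 313, 247 and 281 with SU5402. It went from a trace to a level above that of LHX2 in the same SU5402 libraries per length (6.08 to 7.72 FPKM against 1.83 to 2.26), with a log2 change of 6.18 (SE 0.90, adjusted p = 0.00679, limma). LMX1A, the close relative of LMX1B known from the roof plate and midbrain, was read 2, 4 and 0 times in the DMSO libraries and 24, 30 and 28 times in the SU5402 libraries, with a log2 change of 3.47 (SE 0.56, adjusted p = 0.00928, limma). Both genes reached the minimum of 10 normalized counts in 3 libraries only through the SU5402 libraries, in which they are high, so the count of calls in this list is partly set by that minimum. Both estimates rest on few DMSO reads and depend on the count added before taking logs. The neuron markers, of which 3 of 6 were called higher against 6.26% of all genes tested, are given above. Their part in the levels of LHX5 and LMX1A was not tested.

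LHX1 and LHX6, named here after their values were seen, did not pass in limma without an intensity trend, but were called by edgeR and DESeq2 on the reads. LHX1 had 0, 16.1 and 11.8 normalized counts with DMSO and 73.9, 43.8 and 42.1 with SU5402 (adjusted p = 0.0957 by limma and 0.0118 by edgeR). LHX6 moved the other way, with 75.5, 55.8 and 68.5 against 11.2, 12.3 and 0 (adjusted p = 0.0535 by limma and 0.00244 by edgeR). Neither gene overlapped between treatments, but neither did 49.7% of all genes tested. LHX1 reached the minimum of 10 normalized counts in all 3 libraries only with SU5402, and LHX6 only with DMSO. These are the treatments in which each gene is high, so the calls by edgeR and DESeq2 are partly set by that minimum.

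**Figure D5:**
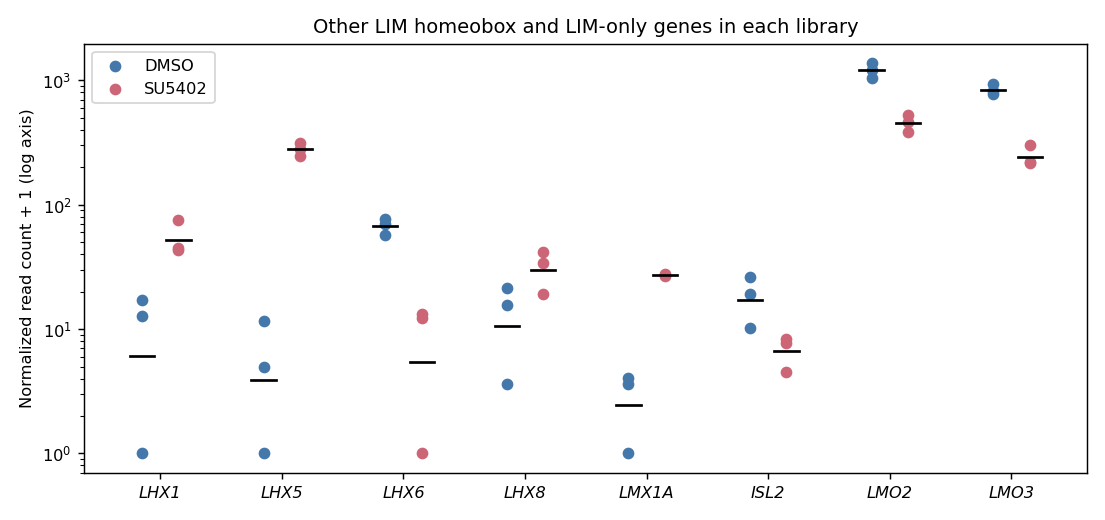
Normalized read count plus 1 (vertical axis, log scale) of other LIM homeobox genes and of the LIM-only genes LMO2 and LMO3 in each library, with geometric means as bars. LHX5 is at 247 to 313 normalized counts in the SU5402 libraries and at most 10.7 in the DMSO libraries, and LMO2 and LMO3 are lower in every SU5402 library than in any DMSO library.

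Among 10 further genes of LIM complexes tested, 2 were down-regulated by limma, against 4.54% of all genes tested, and 1 was up-regulated, against 6.26%, and their median log2 fold change was -0.08. Both down-regulated genes were LIM-only genes, like LMO1. LMO2 had 1367, 1218 and 1049 normalized counts with DMSO and 459, 380.0 and 524 with SU5402 (log2 fold change -1.42, SE 0.16, adjusted p = 0.00285, limma), and LMO3 had 773, 823 and 940.2 against 214, 219 and 299.9 (-1.80, SE 0.16, adjusted p = 0.00151, limma). LMO2 is a partner of TAL1, GATA factors and LDB1 in blood and endothelial cells, and the endothelial markers given above were lower in the same libraries while the blood markers were higher. GATA2 had 369, 439.6 and 304 normalized counts with DMSO and 889, 806 and 728 with SU5402, and rose by a log2 change of 1.13 (SE 0.16, adjusted p = 0.00582, limma). TAL1 (0.65) and TCF3 (-0.40), named after their values were seen, passed the adjusted p without a 2-fold change. The other 5, which are SSBP2, SSBP3 and SSBP4, whose proteins bind LDB, RLIM, a ubiquitin ligase for LDB, and TCF12, did not pass by limma, though SSBP3 and TCF12 passed the adjusted p without a 2-fold change by edgeR (0.00801 and 0.0445) and by DESeq2 (0.00258 and 0.0413). The part of endothelial or blood cells in the values of LMO2, TAL1 and GATA2 was not tested.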

How the data were processed

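RNA of 6 libraries, 3 per treatment, was sequenced, and the treatments come from the sample titles. Per the labels, the authors used HISAT2 2.0.5, featureCounts 1.5.0-p3 and DESeq2 1.20.0 with GRCg6a. The authors deposited normalized counts, a signal equal to reads divided by a library size factor, and FPKM values, which the authors scaled to 1 shared total of 33590126. Their group means, fold changes and p-values in the same tables were not used. All normalized values (100% in each library) were whole multiples of 1 read within a tolerance of 0.01, so reads were recovered.

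The main test was limma 3.58.1 (R 4.3.3) on log2(normalized count + 1) over the 16324 genes that reached 10 normalized counts in 3 or more libraries, with Benjamini-Hochberg adjustment. Fold changes of low genes depend on the 1 added. edgeR 4.0.16 and DESeq2 1.42.0 were run on recovered reads as alternatives, beside other pseudocounts, filters, FPKM, treat, an intensity trend, a replicate block and each library left out. Ratios were compared by exact permutation over 20 splits of 6 libraries.

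The 8 genes and the lists were chosen with earlier results of these data known. All 8 are named, with every gene called from the lists of other LIM homeobox and LIM complex genes, dorsoventral and outgrowth genes beside them, and the 3 nearest profiles, except that for ISL1 only the nearest is reported here. LYL1 and 10 of the listed markers had no row under that symbol. The LH-2A row was taken as LHX2 from its description.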

Additional observations from a re-analysis of the deposited data

How the results depend on the processing

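LHX2 and LMO1 were called in all 18 alternatives, and 2 or 3 of the 8 genes were called in each. No fold change or ratio reversed, but not every alternative could reverse one. In limma, other filters, a trend, treat and the block keep the fold change of the main fit. The block likewise keeps the difference of each ratio. All genes called numbered 1763, against 903 on FPKM plus 1 and 454 with limma's treat, a test against a 2-fold change. Treat did not pass ISL1 (3.01, adjusted p = 0.357), and called 0 LIM complex genes (2 at an unadjusted p below 0.05), against 3 by limma without treat, by edgeR and by DESeq2. LMX1B (-0.61), LDB1 (-0.42) and LMO4 (-0.36) also did not pass treat, and could not, because their estimates are below a 2-fold change. Without a filter, more genes were tested, and ISL1 (3.01, adjusted p = 0.0529, limma) and LMO4 (-0.36, adjusted p = 0.0705) did not pass. ISL1 did not reach the FPKM minimum of 1 in 3 libraries (0.899, 1.53 and 1.03 with SU5402), so 16 alternatives gave it a value. Of the other LIM homeobox genes, 4 were called by edgeR with TMM or RLE factors, edgeR with the block, DESeq2 and limma with a trend, and 1 on FPKM plus 1, on FPKM plus 0.1 and with treat. The minimum level for testing partly sets these counts, as given above. With 1 library left out, log2 fold changes ranged from 0.37 to 0.85 for LHX9, 2.35 to 3.76 for ISL1 and -0.43 to -0.28 for LMO4, and the cause was not tested.

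Deviations of DMSO and SU5402 libraries with the same replicate number correlated at 0.0388, 0.00321 and 0.0569, and those with different numbers at -0.0669 to 0.0287. Whether libraries of the same number share an experiment is not given, and so few libraries cannot settle it. With the number as a replicate block, limma called 1555 genes and edgeR 1824. ISL1 (3.01, adjusted p = 0.0702) and LMO4 (-0.36, adjusted p = 0.0745) did not pass with the block in limma, and LHX9 (0.53, adjusted p = 0.0112) passed with the block in edgeR.

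Depth limits ISL1, LHX1, LHX5 and LMX1A, which had 0 to 21 reads in each DMSO library. It also limits LHX6, which had 10, 14 and 0 reads in the SU5402 libraries.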
